A study of Mus musculus with 8 samples.

Results

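The cytosolic ribosomal protein genes, here called RP genes, were taken as every probe whose gene symbol on the array platform was Rpl or Rps followed by digits and an optional suffix, with Rplp0 to Rplp2 and Rpsa included. Kinases of the Rps6k family, mitochondrial ribosomal proteins, proteins that only bind an RP and pseudogene symbols were left out. The rule found 93 of the 45281 probes, for 63 of the 19057 genes named by 1 symbol. Of these genes, 42 had 1 probe and 21 had more than 1. Rps4l met the rule by its symbol but is a transcribed pseudogene in RefSeq, and it stayed in the counts.

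RNA came from EGFP-positive cells sorted by flow cytometry from tissue labelled as mouse forelimb at stage E12.5 (embryonic), on a mixed C57BL/6J;129 background. HomoBapx1 cells (4 arrays) were homozygous for the Bapx1 null allele. In it an EGFP cassette follows the start codon and replaces part of the coding sequence. Bapx1 (Nkx3-2) is a homeodomain transcription factor of the axial skeleton. WTBapx1 cells (4 arrays) carried an intact Bapx1 with EGFP placed behind an internal ribosome entry site, a genotype the paper writes as heterozygous. Both genotypes thus carried EGFP at the locus, though its copy number may have differed between them. EGFP under this locus defined the sorted cells, and 1 array of total RNA was run per sample.

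Each cytosolic ribosome has a small subunit, which reads the mRNA, and a large subunit, which joins amino acids, and nearly every RP is needed in a single copy per particle. Proliferating embryonic cells devote much of their mRNA to RP genes. Many RP mRNAs begin with a run of pyrimidines at their 5′ end, the terminal oligopyrimidine tract, through which growth signals control their translation. RP genes have many processed pseudogenes and near-identical copies, so a probe may also bind RNA of a copy.

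The start regions of members with a long pyrimidine run show this shared feature, and the last 3 show members in which the run near the start was short. Each line covers 15 bases before and 15 bases from the start listed by RefSeq (GRCm38.p6), written 5′ to 3′ on the gene's strand, with the longest run of C or T in capitals.
Rpl38, chr11:114668565-114668594, plus strand: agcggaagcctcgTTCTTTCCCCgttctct
Rps6, chr4:86857353-86857382, minus strand: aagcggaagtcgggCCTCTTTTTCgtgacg
Rplp2, chr7:141447636-141447665, plus strand: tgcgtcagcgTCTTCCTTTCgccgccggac
Rps10, chr17:27635230-27635259, minus strand: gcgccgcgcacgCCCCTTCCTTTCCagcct
Rpl28, chr7:4792950-4792979, plus strand: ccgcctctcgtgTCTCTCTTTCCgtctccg
Rpl27a, chr7:109519180-109519209, plus strand: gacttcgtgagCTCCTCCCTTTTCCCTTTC
Rplp0, chr5:115559452-115559481, plus strand: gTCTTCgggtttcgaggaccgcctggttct
Rpl39l, chr16:10170213-10170242, plus strand: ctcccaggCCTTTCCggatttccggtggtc
Rpl7l1, chr17:46782642-46782671, minus strand: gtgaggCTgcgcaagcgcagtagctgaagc

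RefSeq promoter entries matched 52 of the 63 RP genes. Within 50 bases either side of a start, a sense-strand run of at least 8 C or T was present in 43 of the 52 RP genes (82.7%) and in 39.3% of all 27025 genes with an entry. The mirror feature, a run of at least 8 A or G, was found in 23.1% of RP genes, against 41.1% of all genes. The letters CTTTCC on the sense strand, which can lie within such a run, occurred in 30.8% of RP genes and 5.43% of all genes. The letters CCGGAAG, searched on both strands, occurred in 13 of the 52 RP genes and 5.98% of all genes. TATAAA on the sense strand was found in 7.69% of RP genes and 4.05% of all. These are matches of letters only. All genes with an entry include genes that were not above background on these arrays.

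Array facts that bear on all results were as follows. Between 43.8% and 46.1% of probes were above background (detection p under 0.05) on each array, and any 2 arrays correlated at 0.988 to 0.998 over all probes. Both Nkx3-2 probes were above background on the 4 HomoBapx1 arrays and on no WTBapx1 array, with log2 changes of 3.37 and 3.10 (limma, adjusted p = 8.83e-08 and 3.34e-07). The positions of these probes relative to the replaced coding sequence were not used here, so this signal does not check the labels, and directions below rest on the labels as given. The limb markers went in part against the labelled tissue. Of Tbx5, which marks the forelimb, 1 probe was above background on all 8 arrays, at 64.4 to 108.9 units in HomoBapx1 and 77.4 to 128.1 units in WTBapx1, and the other on none. Of Tbx4, which marks the hindlimb, 1 probe was above background on all 8 arrays, at 578.2 to 852.9 units in HomoBapx1 and 411.9 to 518.1 units in WTBapx1, while Pitx1, also of the hindlimb, was above background on 1 HomoBapx1 array and no WTBapx1 array. The cells are called forelimb here as labelled. HomoBapx1 replicates 2 and 3 stood apart in Xist, whose brightest probe read 8.99 and 6.57 in them on the normalized log2 scale, against 11.26 and 11.58 in HomoBapx1 replicates 1 and 4 and 10.57 to 12.02 in WTBapx1 cells. The markers of platelets and megakaryocytes were called lower in HomoBapx1 for 10 of 11 genes kept, with array means of 5.65 to 7.09 in HomoBapx1 and 8.42 to 9.25 in WTBapx1. Macrophage and leukocyte markers were called lower for 10 of 12 (5.23 to 5.46 in HomoBapx1, 6.46 to 7.04 in WTBapx1), with Ptprc at background on all arrays, and skeletal muscle markers for 8 of 11 (6.73 to 6.97 in HomoBapx1, 7.18 to 7.46 in WTBapx1), with Myf5 at background. Endothelial markers were called lower for 3 of 9, and erythroid markers for 0 of 9 although their median change was −0.33. In bulk RNA, fewer cells of a type and less RNA per cell cannot be told apart, and the part of these cells in the RP values was not tested.

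RP probes were among the brightest on every array. The highest spot of an array read 37923 to 45321 intensity units, and the median RP probe read 2290 to 3415 units on HomoBapx1 arrays and 2734 to 3753 units on WTBapx1 arrays. The median of all probes was 57.9 to 66.3 units on HomoBapx1 arrays and 58.5 to 70.4 units on WTBapx1 arrays. On all 8 arrays together, 58 of the 93 RP probes (62.4%) lay in the brightest 10%, and 37 RP probes made up 9.66% of the 383 probes in the brightest 1%. An RP probe was above background on all 8 arrays in 82 of 93 cases (88.2%), against 39.5% of all probes. Brightness depends on the probe as well as the transcript, so no order among RP genes was drawn from it.

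Not every RP probe was bright. Detection failed on every array for 8 probes, which were the only probes of Rpl3l, a muscle-type relative of Rpl3, and of Rpl17, Rpl6 and Rps23, and further probes of Rpl37, Rplp2, Rps24 and Rpsa. A second probe of Rps19 passed on 3 arrays and was not kept. Rpl37, Rplp2, Rps24 and Rps19 each also had a probe in the brightest 10%, so a gene could have a dim and a bright probe. The 84 RP probes above background on at least 4 arrays, for 59 genes, were carried into the tests, among 20593 probes in all.

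The spread between arrays of the same genotype was small for RP probes. The median within-genotype SD was 0.0981 on the log2 scale over the 84 RP probes and 0.157 over all kept probes. An SD under 0.1 was found for 43 RP probes (51.2%), against 19.7% of kept probes, and an SD over 0.2 for 9 RP probes (10.7%), against 31.5%. Brighter probes vary less on these arrays, and within the brightest 10% of kept probes the medians were 0.0781 for 55 RP probes and 0.0968 for the other probes. That class spans mean log2 levels of 10.87 to 15.29, and RP and other probes were not matched in brightness within it. Under the scale normalization named in the study's methods, as applied here, the order turned, with a median SD of 0.862 for RP probes and 0.320 for all kept probes. It did not turn in the authors' processed table (0.117 for RP probes, 0.156 for all kept probes). With a shift of each array by its median it did not turn either (0.125 and 0.195).

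**Figure D1:**
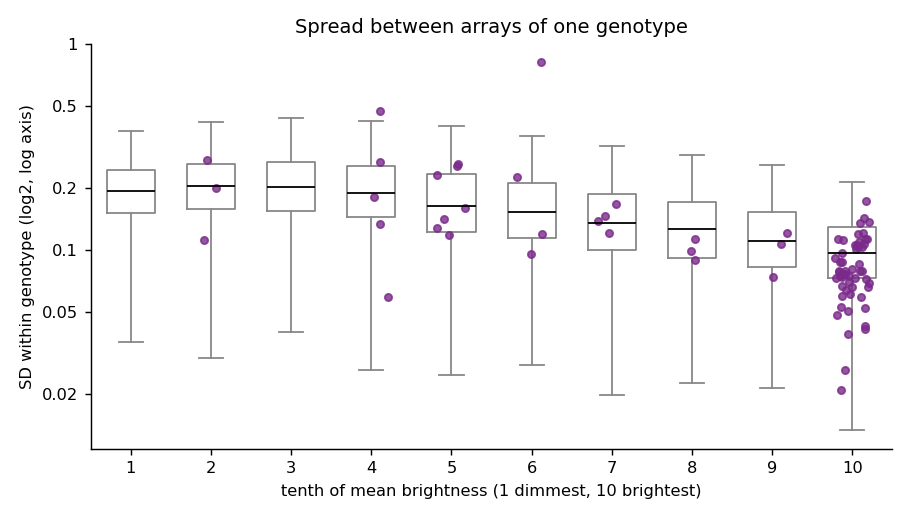
Within-genotype SD of normalized log2 intensity (log axis) in the 10 classes of mean brightness (1 dimmest, 10 brightest), with purple points for the RP probes and boxes (median, quartiles, whiskers to 1.5 times the interquartile range) for the other kept probes. Most RP probes lie in class 10, where their median SD was 0.0781 against 0.0968 for the other probes, and the 2 points furthest above the boxes are the dimmer probes of Rpl29 (0.815) and Rplp0 (0.475).

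The steadiest members were bright probes of both subunits. Rpl10a, a protein of the large subunit, read 14.29, 14.30, 14.32 and 14.32 in HomoBapx1 cells and 14.33, 14.31, 14.28 and 14.28 in WTBapx1 cells on the normalized log2 scale, with an SD of 0.021. Its intensities before normalization ran between 16496 and 21010 units in HomoBapx1 and between 17952 and 24451 units in WTBapx1, so the evenness is that of its rank on each array. Rps12, a protein of the small subunit, read 14.51, 14.48, 14.51 and 14.51 in HomoBapx1 cells and 14.55, 14.61, 14.55 and 14.54 in WTBapx1 cells. Its brightest probe had an SD of 0.0261, and the genotypes did not overlap although their means differed by only 0.061. Rpl22, an RNA-binding protein of the large subunit, had an SD of 0.0389.

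The least even members were dim probes. The dimmer probes of Rpl29 and Rplp0 had SDs of 0.815 and 0.475, and that of Rpl37 had an SD of 0.275. The bright probes of Rpl29 and Rpl37 had SDs of 0.106 and 0.0791, and the other Rplp0 probe one of 0.0994.

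The comparison of HomoBapx1 with WTBapx1 cells asked whether the loss of Bapx1 changed RP transcripts in the forelimb. At an adjusted p under 0.05 (limma, Benjamini-Hochberg over 20593 probes) 2 of 84 RP probes (2.38%) were called, both lower in HomoBapx1. The background was 3.97% of kept probes called in either direction, 2.12% called lower and 1.85% called higher, so the share of RP probes called lay near that of all probes. Over all kept probes 380 were called higher and 437 lower, and 31 and 84 under the scale normalization of the methods. No RP probe was called higher, and none was higher at an unadjusted p under 0.05, where 18 were lower (21.4%). Over all kept probes, 8.94% were lower and 8.5% higher at that level. The methods' t-test, the fit with array weights and the robust fit also called 0 higher.

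Small differences in one direction were common. The log2 change was below 0 for 65 of the 84 RP probes (77.4%), against 47.8% of kept probes, and its median was −0.08 (0.945-fold), against 0.01 for all kept probes. The 4 HomoBapx1 arrays lay wholly below the 4 WTBapx1 arrays for 16 RP probes (19%), where 12.3% of kept probes did not overlap in either direction and 6.39% did not overlap with HomoBapx1 lower. No RP probe had HomoBapx1 wholly above. RP probes are not independent of each other, since they share samples and scaling. The differences were small: 73 of 84 RP probes (86.9%) lay within 0.25 either way, against 80.9% of kept probes, and the 95% interval of a member's change reached a median of 0.188 to either side.

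**Figure D2:**
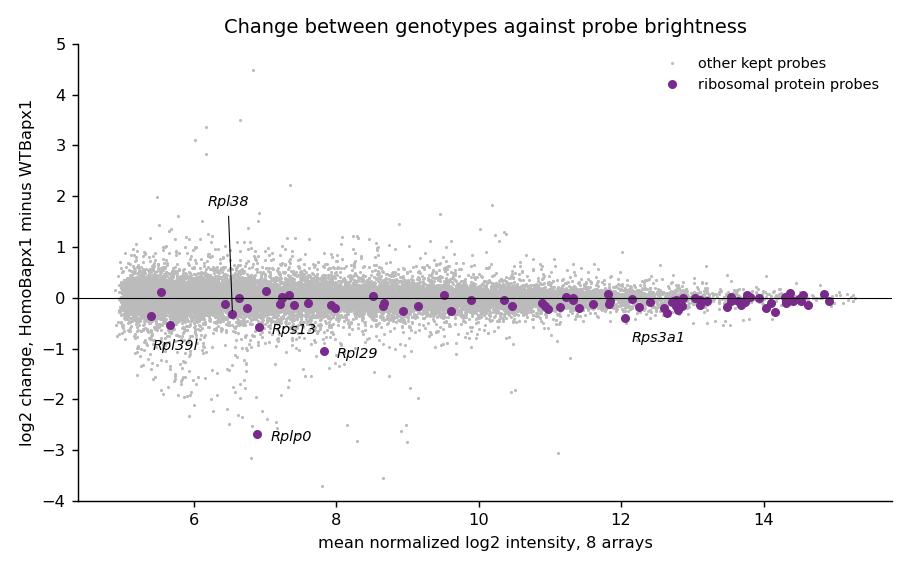
Log2 change (HomoBapx1 minus WTBapx1) against mean normalized log2 intensity over 8 arrays, for the 84 RP probes in purple and the other kept probes in grey. RP probes lie mostly a little below 0 at high brightness, and the named points lower down are the dimmer probe of Rplp0 (−2.68), that of Rpl29 (−1.05), those of Rps13 and Rpl38, and the single probes of Rpl39l and Rps3a1.

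By array, the median deviation of RP probes from their own 8-array means was −0.02, −0.05, −0.07 and −0.02 in HomoBapx1 replicates 1 to 4 and 0.05, 0.09, 0.02 and 0.06 in WTBapx1 replicates 1 to 4. All 4 HomoBapx1 medians were below 0 and all 4 WTBapx1 medians above it. Between 27.4% and 39.3% of RP probes exceeded their own mean on a HomoBapx1 array, and between 56% and 71.4% on a WTBapx1 array. With a shift of each array by its median as the only scaling, WTBapx1 replicate 4 was also below 0 (−0.04), with the other probes at −0.16 on that array. Under that scaling the RP median was below that of the other probes on all 4 HomoBapx1 arrays and above it on all 4 WTBapx1 arrays. Under the scale normalization of the methods the arrays did not divide by genotype, with RP medians of 0.99, −0.70, −0.53 and 0.10 in HomoBapx1 and −1.05, 0.60, −0.49 and 1.10 in WTBapx1.

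**Figure D3:**
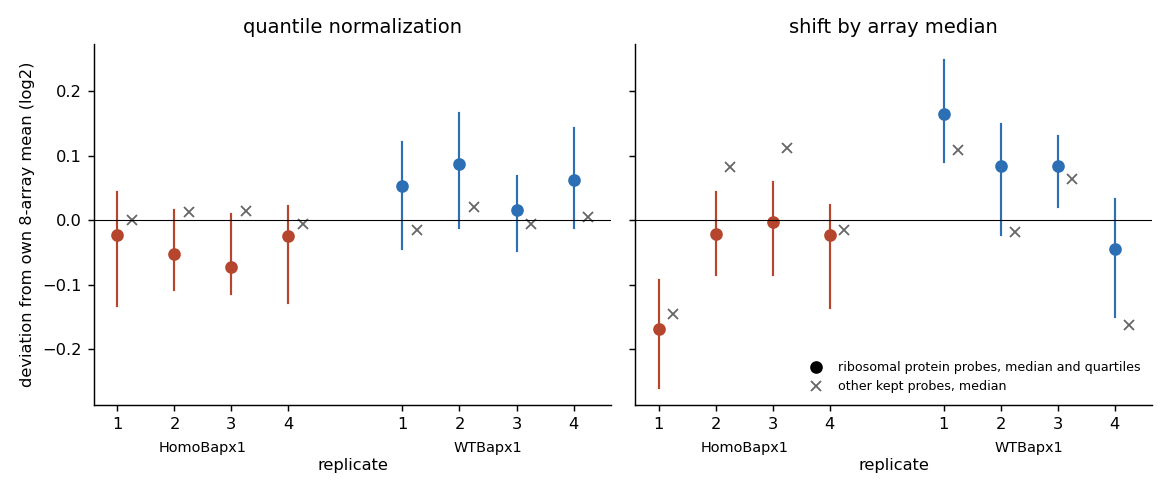
Deviation of RP probes from their own 8-array mean on each array (circle: median; line: quartiles; HomoBapx1 red, WTBapx1 blue), and the median of the other kept probes (cross), under quantile normalization and under a shift by the array median. In the first panel the RP medians are −0.07 to −0.02 in HomoBapx1 and 0.02 to 0.09 in WTBapx1.

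The acidic stalk, which recruits translation factors to the large subunit, is built of Rplp0, Rplp1 and Rplp2. All 4 of its kept probes, 2 of them of Rplp0, were below 0, with a median of −0.27. Of all RP probes 77.4% were below 0. The median was −0.07 over 49 probes of the rest of the large subunit, 35 of them below 0, and −0.10 over 31 small subunit probes, 26 of them below 0.

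Rplp0, the base of the stalk, gave the larger of the 2 called changes and also the widest gap between probes of a gene. Its dimmer probe (ILMN_1249815) read 61.0, 108.6, 116.5 and 65.9 intensity units in HomoBapx1 replicates 1 to 4, against 380.0, 293.8, 447.0 and 256.4 units in WTBapx1 replicates 1 to 4. All HomoBapx1 arrays were below all WTBapx1 arrays, and the probe was above background on 2 of 4 HomoBapx1 arrays, replicates 2 and 3, and on all 4 WTBapx1 arrays. The log2 change was −2.68 ± 0.27 (SE, n = 4 per genotype, limma, adjusted p = 0.00109). Since HomoBapx1 replicates 1 and 4 were not above background, the size of this change depends on the background correction. It was −2.02 without correction, −1.98 in the authors' processed table and −1.84 with saddle normexp, and −3.23 without HomoBapx1 replicates 2 and 3, and the probe was called lower in each. The brighter probe (ILMN_2744356) read 579.1, 840.1, 866.0 and 761.4 units in HomoBapx1 cells and 1060.4, 886.7, 1046.3 and 636.0 units in WTBapx1 cells. After normalization its genotypes did not overlap, but its change of −0.26 ± 0.08 did not pass (limma, adjusted p = 0.142). Which of the probes follows the Rplp0 transcript was not tested.

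Rplp1 read 14.06, 13.92, 13.96 and 14.18 in HomoBapx1 cells and 14.40, 14.40, 14.20 and 14.22 in WTBapx1 cells. The groups did not overlap, and the change was −0.27 ± 0.09 (limma, adjusted p = 0.142). Rplp2 overlapped between genotypes, at −0.13 ± 0.09 (limma, adjusted p = 0.485).

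Rpl38, whose loss in mice alters the patterning of the axial skeleton, gave the other call. Its dimmer probe (ILMN_2594971) read 6.43, 6.42, 6.32 and 6.36 in HomoBapx1 cells and 6.79, 6.74, 6.67 and 6.64 in WTBapx1 cells on the normalized log2 scale. These groups did not overlap and each was tight, and the change was −0.33 ± 0.07 (limma, adjusted p = 0.0355). Before normalization the intensities overlapped, at 102.8 to 132.0 units in HomoBapx1 and 114.2 to 176.0 units in WTBapx1. Its bright probe read 17757 to 20624 units in HomoBapx1 and 18822 to 25164 units in WTBapx1, with a change of −0.07 ± 0.08 (limma, adjusted p = 0.699). Leaving out any 1 array ended the call of the dimmer probe, as did the scale normalization (limma, adjusted p = 0.858), the authors' processed table (0.366), the median shift (0.294), the robust fit (0.0943), saddle normexp (0.0598) and no background correction (0.0556).

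Other members tied to the skeleton in mouse mutants did not pass. Rpl29, whose loss reduces body size and bone strength, had a dimmer probe at 106.6, 397.8, 384.0 and 105.3 units in HomoBapx1 replicates 1 to 4, against 388.7, 332.1, 461.6 and 289.0 units in WTBapx1 replicates 1 to 4. HomoBapx1 replicates 1 and 4 were low and replicates 2 and 3 lay within the WTBapx1 range. The change was −1.05 ± 0.46 (limma, adjusted p = 0.28). It was −0.67 without HomoBapx1 replicate 4 and −0.31 with array weights, neither called, and −2.02 without HomoBapx1 replicates 2 and 3 together. That last fit left only the low replicates 1 and 4 in HomoBapx1. Its call lower (limma, adjusted p = 0.0012) thus follows from the arrays left in and adds no support. The bright Rpl29 probe was at −0.01 ± 0.09 (limma, adjusted p = 0.956). Rpl24, a large subunit protein whose mutation in mice affects the tail skeleton, and Rps7, a small subunit protein linked to skeletal defects in mouse mutants, had changes of −0.10 ± 0.11 and −0.12 ± 0.10.

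**Figure D4:**
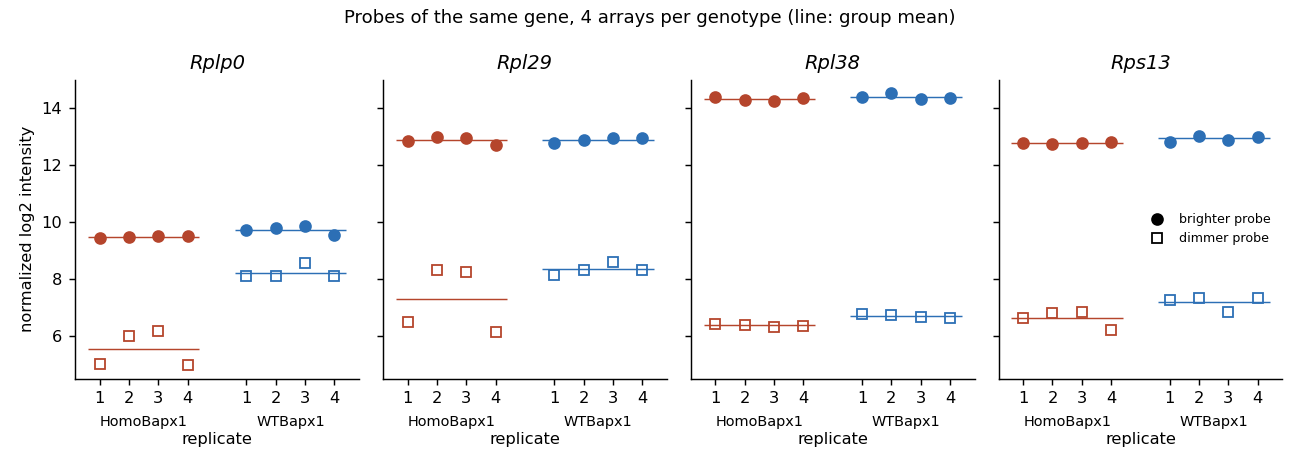
Normalized log2 intensity of the brighter (filled circles) and dimmer (open squares) probe of Rplp0, Rpl29, Rpl38 and Rps13 on each array, HomoBapx1 in red and WTBapx1 in blue, with lines at the group means. The bright probes differ by at most 0.26 between the group means, while the dimmer Rplp0 probe averages 5.56 in HomoBapx1 and 8.24 in WTBapx1 and the dimmer Rpl29 probe is low in HomoBapx1 replicates 1 and 4 only.

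A difference over 1 between probes was found in only 2 RP genes, though in a larger share of them than of all genes. At over 0.25 the share was near that of all genes, and the median difference was smaller in RP genes. Of 18 RP genes with more than 1 kept probe, the changes of the probes differed by more than 1 in Rplp0 (2.42) and Rpl29 (1.03), and by more than 0.25 in 5. Over 1 was found in 0.539% of all 4266 genes with more than 1 kept probe and over 0.25 in 23.2%, and the median difference was 0.0973 in RP genes and 0.131 in all. The 4 kept probes of Rpl23 lay between −0.05 and 0.07, the 4 of Rpl27a between −0.17 and −0.09, and the 3 of Rpl31 between −0.04 and 0.02. In the 5 genes with a difference over 0.25 (Rplp0, Rpl29, Rps13, Rpl37 and Rpl38), the dimmer probe had the lower change.

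Several members with non-overlapping genotypes stood just short of the threshold. Rpl39l, a relative of Rpl39 known mainly from testis, read 73.5, 83.0, 84.3 and 69.4 units in HomoBapx1 cells and 119.8, 85.7, 94.6 and 93.8 units in WTBapx1 cells. The HomoBapx1 arrays were all lower, with a change of −0.54 ± 0.13 (limma, adjusted p = 0.0524), which was −0.32 without background correction. Rps27l, a relative of Rps27 induced by p53, read 4636 to 6327 units in HomoBapx1 cells and 5882 to 8596 units in WTBapx1 cells. After normalization its groups did not overlap, with a change of −0.30 ± 0.07 (limma, adjusted p = 0.0627). With 1 probe a gene, the brightest, and adjustment over 11037 genes, of which 6.18% were called, these 2 were the only members called of 59, both lower (limma, adjusted p = 0.0344 and 0.037).

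Other small subunit members also missed the threshold. Rps3a1 read 11.80, 12.01, 11.97 and 11.62 in HomoBapx1 cells and 12.42, 12.04, 12.21 and 12.35 in WTBapx1 cells. All HomoBapx1 arrays were lower, at −0.40 ± 0.12 (limma, adjusted p = 0.101). The dimmer Rps13 probe was at −0.57 ± 0.16 (limma, adjusted p = 0.0915) and was called lower without WTBapx1 replicate 3, while the bright one was at −0.16 ± 0.07. Rps16 and Rps10 had changes of −0.25 ± 0.07 and −0.21 ± 0.07, and Rps6, the substrate of S6 kinase, one of −0.17 ± 0.07.

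The members with the highest changes were not separated between genotypes. The dimmer Rpl7l1 probe was at 0.13 ± 0.10, Rpsa at 0.11 ± 0.09, Rpl3 at 0.09 ± 0.07, Rpl22 at 0.08 ± 0.07 and the brightest Rpl23 probe at 0.07 ± 0.09, and each of these overlapped. Rpsa, the small subunit protein also known as a laminin receptor, was dim here, at 69.4 to 93.3 units in HomoBapx1 cells and 72.2 to 86.9 units in WTBapx1 cells.

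The changes of related members could be set side by side. Rpl22 was at 0.08 and its paralog Rpl22l1 at −0.16 ± 0.09, with Rpl22l1 at 1211 to 1523 units in HomoBapx1 cells and 1189 to 1974 units in WTBapx1 cells. Rpl36a, on the X chromosome, was at 0.00 ± 0.08 and its autosomal paralog Rpl36al at −0.12 ± 0.08. Rpl39, also X-linked, was at −0.20 ± 0.09 against −0.54 for Rpl39l. Rps4x, the third X-linked member kept, read 13.92, 13.98, 13.94 and 13.90 in HomoBapx1 cells and 13.92, 14.02, 13.91 and 13.90 in WTBapx1 cells, the same mean of 13.93 in both. The differences within pairs were not tested. HomoBapx1 replicates 2 and 3, which were low in Xist, read 13.83 and 13.88 for Rpl39, against 14.01 and 14.06 in HomoBapx1 replicates 1 and 4, and lay below all WTBapx1 arrays. Without these 2 arrays the Rpl39 change was −0.11. In Rps4x they were not set apart in this way. The split was not particular to X-linked members. Autosomal Rpl32 read 13.534 and 13.538 in HomoBapx1 replicates 2 and 3, against 13.716 and 13.672 in replicates 1 and 4. Its lowest WTBapx1 array read 13.595. The bright Rpl37 probe, also autosomal, read 14.431 and 14.385 in HomoBapx1 replicates 2 and 3, and its lowest WTBapx1 array 14.445.

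Several members are mutated in Diamond-Blackfan anemia, a human failure of red cell production. The bright probes of Rps19, Rps24, Rps26 and Rps10 had changes of −0.07 ± 0.07, −0.06 ± 0.08, 0.01 ± 0.08 and −0.21 ± 0.07, and Rps15a, Rpl27 and Rpl35 ones of −0.25 ± 0.09, −0.21 ± 0.09 and −0.15 ± 0.07. None of these was called. For Rps10 and Rpl35 all HomoBapx1 arrays lay below all WTBapx1 arrays, as for 19% of RP probes and 6.39% of kept probes. Rps15a, Rpl27 and Rpl35 were added to this group after their values were seen. Other members of the group were left out, so no direction of the group was drawn from these values.

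**Figure D5:**
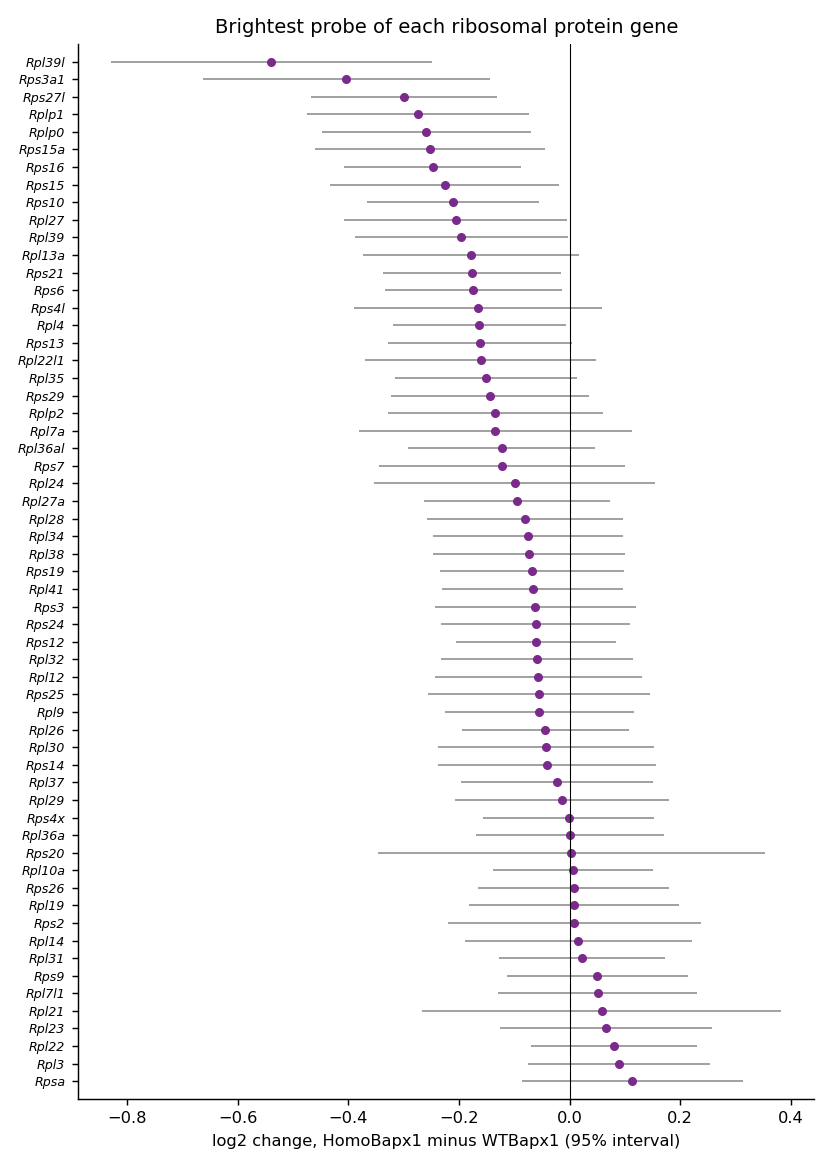
Log2 change (HomoBapx1 minus WTBapx1) with its 95% interval for the brightest kept probe of each of the 59 RP genes, ordered by change. Of these, 44 lie below 0 and Rpl39l is lowest at −0.54, Rpsa highest at 0.11. Intervals are not adjusted for the number of genes.

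Genes that make or use ribosomes were mostly not called, but 0 or 1 call in a short list lies near the share called over all features. That share was 3.97% of kept probes, and 6.18% of genes at 1 probe a gene. None of the 8 elongation factors, 41 ribosome biogenesis genes, 10 Myc and mTOR regulators, 12 other transcripts known to begin with a pyrimidine tract or 72 mitochondrial ribosomal proteins kept was called, and the median changes of these lists lay between −0.02 and 0.08. Myc, Mycn and Max were at background on all arrays and Rps6kb1 had no probe, so these regulators were not tested. Of 25 initiation factors, Eif4e, which binds the mRNA cap, was called lower. It read 7.27, 7.28, 7.59 and 6.99 in HomoBapx1 cells and 8.49, 8.11, 7.82 and 8.02 in WTBapx1 cells, a change of −0.83 ± 0.16 (limma, adjusted p = 0.0215). Of 14 p53 targets, Pmaip1, a promoter of cell death, was called higher at 0.71 ± 0.13 (limma, adjusted p = 0.0166). It read 5.59, 5.74, 5.95 and 5.30 in HomoBapx1 cells and 5.03, 4.83, 4.95 and 4.92 in WTBapx1 cells. The WTBapx1 values were near background level, since the dimmer Rplp0 probe at 5.02 and 4.99 was not above background. How far the Pmaip1 change depends on the background correction was not tested. At the brightest probe a gene, as used for these lists, the median RP change was −0.0687, below the median of each of these lists.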

How the data were processed

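Illumina mouse arrays were measured for 4 HomoBapx1 and 4 WTBapx1 samples, 1 array each. The authors deposited probe intensity values with a detection value per probe, given as a fraction (1 minus the detection p), and a table of processed log2 values, used only as an alternative. GenomeStudio is named per the labels, with no version. The rows of both tables were paired by value (45281 of 45281). Gene symbols came from the platform annotation.

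The methods name background-subtracted values, but the intensity table holds none below 0, so it was taken as not subtracted, which affects dim probes most. Intensities were background-corrected by normexp with detection p-values (offset 16), log2-transformed and quantile-normalized, and probes with detection p under 0.05 on at least 4 of 8 arrays were kept. Genotypes were compared with limma 3.58.1 in R 4.3.3, with Benjamini-Hochberg adjustment over all kept probes. The fit was tested on simulated data. The number of arrays limits the precision, and p-values measure the spread between these samples, described as biological replicates in the methods. Chips were not identified in the sources used here.

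Members, lists and tests were chosen with earlier results of these data known. Named genes were the called, most and least changed, most and least even, paralogous and functionally marked members, and those with discordant probes. RP genes whose symbols had no probe here were not analysed here. The alternatives tried are listed in the closing part.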

Additional observations from a re-analysis of the deposited data

Results flagged for a closer look

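Of 70 groups of 4 arrays examined, 5 held an array far from the others by Dixon's criterion (gap above 0.829 of the range), and chance flags about 1 in 20 groups. On the normalized log2 scale, WTBapx1 replicate 3 was high for the dimmer Rplp0 probe (8.565, the others 8.12 to 8.13) and low for the dimmer Rps13 probe (6.848, the others at least 7.274). For the brightest Rps12 probe, HomoBapx1 replicate 2 was low at 14.48, the others at 14.51, and WTBapx1 replicate 2 was high at 14.61, the others 14.54 to 14.55. WTBapx1 replicate 2 was also high for Rps4x at 14.02, the others at most 13.91. Gaps for Rps12 and Rps4x were about 0.1 or less.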

How the results depend on the processing

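In every alternative run, no RP probe was called higher. The 2 calls lower became 1 under the scale normalization of the methods, the median shift, the authors' processed table and detection on all 8 arrays (which leaves out the dimmer Rplp0 probe), 6 with a variance trend and robust fit (Rpl38 not among them) and 9 with array weights. With the replicate number as a replicate block the count was 1 (Rplp0), although the numbers mark no shared animal or batch and same-numbered samples correlated at −0.26 to 0.244. Over all kept probes, 380 were called higher and 437 lower in the main fit. The block gave 190 and 244, the scale normalization 31 and 84, and the median shift 189 and 224. The authors' processed values gave 154 and 179, the plain t-test 171 and 207, and array weights 919 and 958. The variance trend and robust fit gave 402 and 504, and detection on all 8 arrays 303 and 310 over the probes it kept. Leaving out 1 array gave 1 to 2 calls, with the dimmer Rplp0 probe called each time, that of Rpl38 never, and that of Rps13 without WTBapx1 replicate 3. Those fits called 194 to 301 of all kept probes higher and 258 to 355 lower. Without HomoBapx1 replicates 2 and 3 together, 3 were called (the dimmer probes of Rplp0, Rpl29 and Rps13), and over all kept probes 447 were called higher and 704 lower. In each of these 3 RP probes, replicates 2 and 3 were the highest HomoBapx1 arrays, so leaving them out lowered the HomoBapx1 mean. The median change of −0.0816 was −0.122 with the median shift and −0.12 in the authors' table, and −0.1 to −0.0732 without 1 array. The median SD of 0.0981 was 0.862 under the scale normalization, 0.125 with the median shift, 0.117 in the authors' table, 0.0896 with saddle normexp, 0.0871 with 1 probe a gene, 0.0921 without HomoBapx1 replicates 2 and 3, and 0.0842 to 0.103 without 1 array. Changes near 0 turned sign. Rpl10a was −0.038 under the scale normalization, −0.0827 with the median shift and −0.0811 in the authors' table, Rpl36a −0.00934, −0.0561 and −0.0545 under the same settings and −0.017 without HomoBapx1 replicates 2 and 3, and Rps26 −0.0322 with the median shift, −0.0307 in the authors' table and −0.0255 with array weights. Array weights gave 0.0595 for the bright Rpl29 probe, −0.0162 for the brightest Rpl7l1 probe and 0.0264 for Rps4x. Without 1 array, Rpl10a ranged between −0.000463 and 0.016, the bright Rpl29 probe between −0.0503 and 0.0414, Rpl36a between −0.0338 and 0.0404, Rps26 between −0.0214 and 0.0432, and Rps4x between −0.0175 and 0.0269. The cause was not tested.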
